A study of Mesocricetus auratus with 21 samples.

Results

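Whole testes of golden hamsters at 9 d.p.p. (days postpartum) were profiled by RNA-seq and compared between genotypes: all 3 wild-type (WT) libraries of that age against both *Mov10l1*-/- libraries. These 5 libraries, chosen by the genotype and age in their labels, are 5 of the 21 testis libraries of the series. The WT libraries came from 3 animals, and both *Mov10l1*-/- libraries carried the code of 1 animal, so the spread between the latter is not a spread between animals, and p-values that take it as one are too small. WT replicates 1 and 2 carried animal codes that begin with So802, whereas WT replicate 3 and the *Mov10l1*-/- animal carried codes that begin with So820. The sources used here do not state what this prefix marks, and it could be separated from genotype only through WT replicate 3. The *Mov10l1*-/- animal was homozygous for the mutation in its whole body and descended from 1 female founder with a CRISPR-Cas9 deletion, whose heterozygous offspring were bred to outbred wild types for 2 generations before homozygotes were made. Library totals were 77527451, 62677309 and 56754151 counts in WT replicates 1, 2 and 3, and 65723978 and 71178944 counts in the *Mov10l1*-/- libraries.

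PIWI-interacting RNAs (piRNAs) are small germline RNAs that guide PIWI proteins to transposon transcripts and, in foetal and newborn male germ cells, to the transposons' genomic copies, where they direct DNA methylation. MOV10L1 is the RNA helicase that binds piRNA precursors and is needed for their processing, and male mice without it are sterile. In golden hamsters, by the study's account, quiescent germ cells of the newborn testis resume division and form spermatogonia from about the age profiled here. Sertoli cells, which nurse the germ cells, make up much of the tissue.

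The knockout was made by cutting on both sides of exon 20 of *Mov10l1*, which encodes part of the helicase domain. The DNA targets given for the guide RNAs are printed because they define the mutation, with the 3 last bases, which have the form of the NGG motif next to which Cas9 cuts, in capitals.
intron 19, target 1: gggtatcacatgacttgGGG
intron 19, target 2: ggtgttgggatcatagtgGGG
intron 20, target 1: tctccactcttccatgtgGGG
intron 20, target 2: taccattacatttgtcagGGG
The first of these holds 20 bases and each of the others 21, read 5′ to 3′ as the submitters gave them, and their genome positions are not analysed here.

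*Mov10l1* (ENSMAUG00000003667, at 11073749 to 11134091 on the plus strand of MesAur1.0 scaffold KB708136.1) was lower in both *Mov10l1*-/- libraries than in every WT library. Its level in CPM, counts per 1000000 of the TMM-normalized library size, was 34.4, 37.3 and 19.4 in WT replicates 1, 2 and 3, and 1.46 and 1.49 in the *Mov10l1*-/- libraries. The WT mean was 30.4 ± 9.64 CPM (SD, n = 3), and WT replicate 3 held the lowest WT level. The log2 fold change was -4.36 ± 0.316 (SE), with adjusted p = 0.00177 from the edgeR quasi-likelihood fit across all genes, which gave every adjusted p below. With both *Mov10l1*-/- libraries summed into 1, so that only WT animals gave the spread, the log2 fold change of the targeted gene Mov10l1 stayed at -4.36 and its edgeR adjusted p was 0.0335. The count covers all exons of the gene, so it does not show the loss of exon 20 itself.

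The libraries were compared in pairs over the 12998 genes that averaged 1 CPM or more, on the scale log2(CPM + 0.5). The closest pair was the 2 *Mov10l1*-/- libraries of 1 animal, with a median absolute difference of 0.0676. WT pairs differed by 0.105 to 0.146. WT replicate 3 differed from the *Mov10l1*-/- libraries by 0.105 and 0.0935, against 0.105 from WT replicate 2 and 0.146 from WT replicate 1. WT replicate 1 was farthest from the *Mov10l1*-/- libraries, by 0.183 and 0.178. By this measure WT replicate 3 lay about as near to the *Mov10l1*-/- libraries, with which it shares the prefix, as to WT replicate 2. The share of these genes differing over 2-fold gave another order. From WT replicate 3 it was 0.900% and 0.916% for WT replicates 1 and 2, and 1.26% and 1.11% for the *Mov10l1*-/- libraries.

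**Figure D1:**
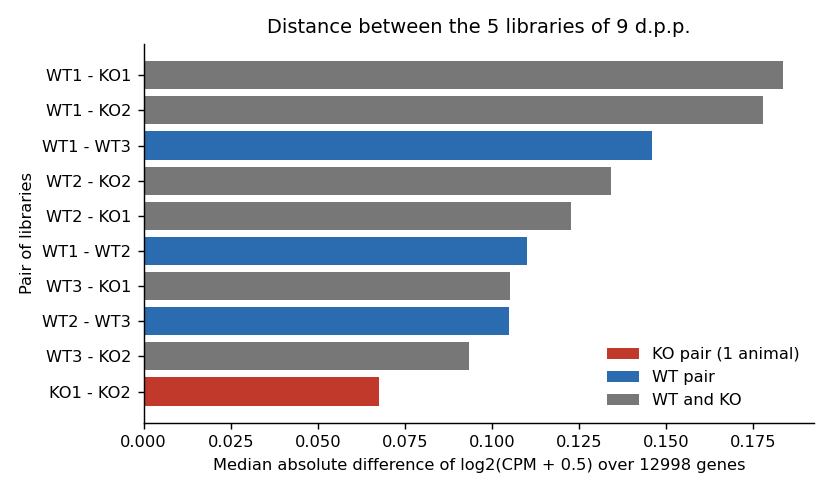
Median absolute difference of log2(CPM + 0.5) over 12998 genes (x axis) for each pair of the 5 libraries of 9 d.p.p. (y axis; WT, wild type; KO, *Mov10l1*-/-), with bars starting at 0. The KO pair from 1 animal is the shortest bar at 0.0676, and WT replicate 3 with KO library 2 is next at 0.0935, shorter than any WT pair.

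Of 15776 genes tested over the 5 libraries, 63 (0.399%) passed an adjusted p below 0.01, 9 of them (0.057%) higher and 54 (0.342%) lower in *Mov10l1*-/- testes. The genes called lower included members of the piRNA pathway, germline RNA-binding proteins and spermatogonial transcription factors, and a keratin gene, *Bnc1* and *Aldh1a2*, markers of mesothelium, were also in it. The genes called higher had low levels, each under 1 CPM on average in WT testes. With DESeq2 on the same libraries 71 genes (0.450%) were higher and 440 (2.79%) lower, and all 63 edgeR calls were among them. Calls depended on which libraries entered. Leaving out WT replicate 3 gave 87 higher (0.559% of 15569) and 496 lower (3.19%), leaving out WT replicate 1 gave 1 and 5, and leaving out WT replicate 2 gave 0 and 3. Leaving out either *Mov10l1*-/- library or summing them gave 0 calls in edgeR's test, where 1537, 1763 and 1525 genes had an unadjusted p below 0.05, against 3427 with all 5 libraries.

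**Figure D2:**
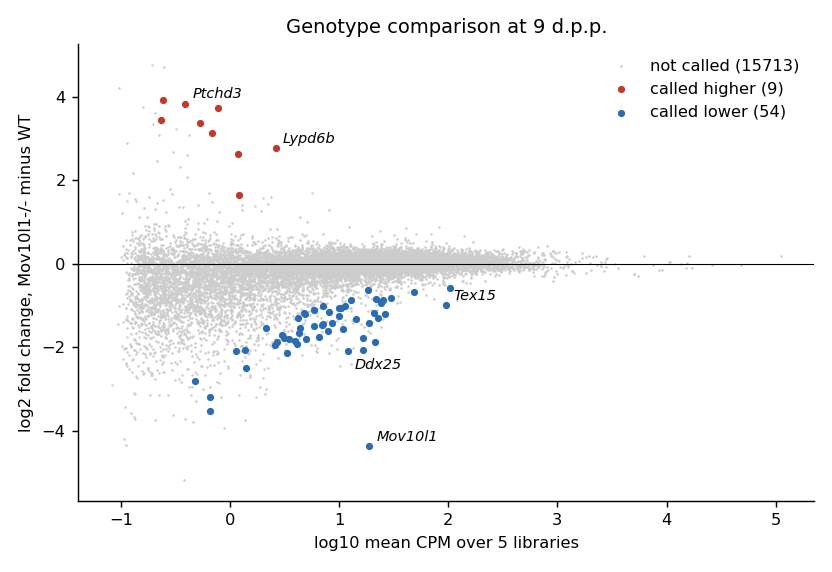
Log2 fold change of *Mov10l1*-/- against WT (y axis) against the log10 mean CPM over the 5 libraries (x axis) for the 15776 genes tested, with the 9 genes called higher in red and the 54 called lower in blue. *Mov10l1* at -4.36 has the largest fall among the called genes, and the genes called higher lie at the low end of expression.

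*Ddx25* was called whichever of the WT libraries was left out, and was the only gene of which this held: no other call was shared by the fits without WT replicate 1 and without WT replicate 2. Without WT replicate 1 the calls were *Lypd6b*, which was higher, and *Ddx25*, *Rnf17*, *Tdrd1*, *Mael* and *Gpr153*, which were lower. Without WT replicate 2 they were *Ddx25*, *Ddx4* and *Piwil2*, all lower. All of these were also called from the 5 libraries.

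Symbols limit every count of named genes. They were taken from lists of changed genes and were available for 1037 of the 15776 tested genes, of which 829 stand in a list of genes that changed in these *Mov10l1*-/- libraries against WT replicates 1 and 2. Counts within named groups are therefore not independent evidence of a direction. Of the 54 genes called lower 35 had a symbol, and of the 9 called higher 2 had one.

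Genes of the piRNA pathway, whose proteins make piRNAs or act with them, made up 7 of the 54 genes called lower. Of the 28 genes listed for the pathway 21 had an identifier and were tested. Of these, 7 were called lower and 0 higher, against 0.342% and 0.057% of all tested genes. The median log2 fold change was -1.42, against 0.003 over all tested genes. All 21 were lower in both *Mov10l1*-/- libraries than in every WT library, which held for 21.5% of all tested genes, and 19 of the 21 stand in the list of changed genes named above. Summed over the 21 genes, WT replicates 1, 2 and 3 held 448, 405 and 409 CPM, and the *Mov10l1*-/- libraries 154 and 173 CPM. In bulk tissue, fewer germ cells and less RNA per germ cell cannot be told apart.

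*Piwil2*, which encodes the PIWI protein that carries most prepachytene piRNAs, was at 30.2, 24.5 and 34.6 CPM in WT replicates 1, 2 and 3 and at 7.42 and 8.79 CPM in *Mov10l1*-/- testes. WT replicate 3 held the highest level. The log2 fold change was -1.87 ± 0.155 (SE, edgeR adjusted p = 0.00253). *Ddx4*, the germ cell helicase Vasa, showed the same order of libraries, with 24.3, 19.4 and 26.0 CPM in WT testes and 6.38 and 7.09 CPM in *Mov10l1*-/- testes (log2 fold change -1.78 ± 0.139 SE, edgeR adjusted p = 0.00229).

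Tudor-domain proteins bind the methylated arginines of PIWI proteins and gather them in germ granules. *Rnf17*, one of them, was at 25.8, 25.1 and 20.3 CPM in WT testes and at 5.31 and 6.03 CPM in *Mov10l1*-/- testes, a log2 fold change of -2.07 ± 0.130 (SE, edgeR adjusted p = 8.52e-04). *Tdrd1* was at 25.9, 25.4 and 23.9 CPM in WT testes and at 8.76 and 9.94 CPM in *Mov10l1*-/- testes, a log2 fold change of -1.42 ± 0.0884 (SE, edgeR adjusted p = 8.52e-04). For both genes the WT libraries lay close together, and the groups were separated by more than 10 CPM. *Mael*, which encodes a protein of the same granules, was at 17.2 to 19.3 CPM against 7.30 and 7.63 CPM, a log2 fold change of -1.31 ± 0.0925 (SE, edgeR adjusted p = 0.00165). *Tex15*, a partner of the nuclear PIWI protein in transposon silencing that is named here after its values were seen, had the highest level of the list, with 131, 113 and 110 CPM in WT testes and 56.0 and 63.0 CPM in *Mov10l1*-/- testes. Its log2 fold change was -0.99 (edgeR adjusted p = 0.00442).

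The other 14 tested members were not called from the 5 libraries, with log2 fold changes from -2.73 to -0.52. All 21 had an unadjusted p below 0.05 in edgeR's test, and DESeq2 called 17 of them. Such an edgeR p was found in either direction for 3427 of all 15776 tested genes, and DESeq2 called 2.79% of them lower.

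**Figure D3:**
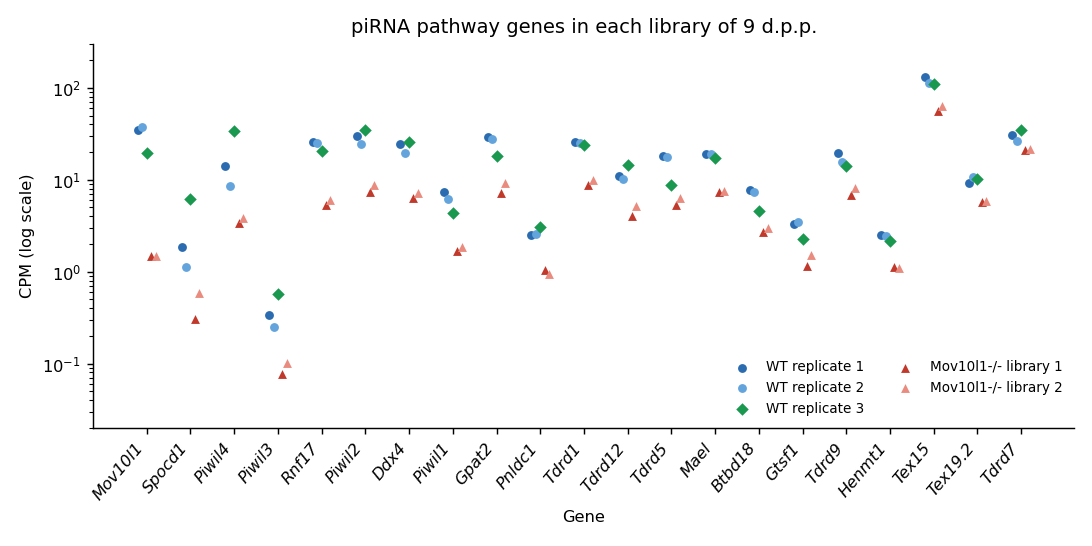
CPM on a log axis (y axis) of the 21 tested piRNA pathway genes (x axis, ordered by log2 fold change) in each of the 5 libraries of 9 d.p.p., with 1 marker per library. The *Mov10l1*-/- triangles lie below all WT markers for each gene. The WT replicate 3 diamond lies above the other WT markers for 8 genes, *Spocd1*, *Piwil4* and *Piwil3* among them. It lies below them for 12, *Mov10l1* among them.

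Germline RNA-binding proteins hold, transport or silence germ cell mRNAs. Of 20 listed genes 17 were tested and 6 were called lower, *Ddx4* among them, with a median log2 fold change of -1.12. In 15 of the 17 both *Mov10l1*-/- libraries lay below every WT library, against 21.5% of all tested genes, with 0.342% of all called lower, and 16 of the 17 stand in the list of changed genes. *Ddx25*, a helicase needed for the translation of stored mRNAs in spermatids, was at 17.9, 15.4 and 18.5 CPM in WT testes and at 3.67 and 4.47 CPM in *Mov10l1*-/- testes. Its log2 fold change of -2.08 ± 0.131 (SE, edgeR adjusted p = 8.52e-04) was the largest after that of *Mov10l1* among genes called lower that have a symbol. *Adad1* and *Adad2*, which encode testis proteins with adenosine deaminase domains, were at 11.7 to 14.1 CPM and 5.13 to 6.19 CPM in WT testes. In the knockout they were at 5.05 and 5.84 CPM and at 2.11 and 2.41 CPM (log2 fold changes -1.24 and -1.30). *Trim71*, which encodes a repressor of mRNAs, was at 8.07 to 9.57 CPM in WT testes and at 4.39 and 4.58 CPM in *Mov10l1*-/- testes (log2 fold change -0.999). The sixth, *Elavl2*, named after its values were seen, had a log2 fold change of -1.02. Adjusted p-values of these 4 genes lay between 0.00442 and 0.00825 in edgeR's test.

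Among genes of spermatogonia, the cells from which spermatogenesis starts, 3 of the 22 tested (of 35 listed) were called lower. They were *Trim71* and the transcription factors *Sall4* and *Egr4*. Over all tested genes 0.342% were called lower. All 22 had a negative log2 fold change, with a median of -1.11 and a range from -2.95 to -0.49, and all 22 stand in the list of changed genes. *Sall4*, a zinc finger factor of undifferentiated germ cells, was at 15.7, 16.4 and 11.9 CPM in WT testes and at 4.78 and 5.25 CPM in *Mov10l1*-/- testes (log2 fold change -1.55 ± 0.155 SE, edgeR adjusted p = 0.00490). *Egr4*, an early growth response factor needed for male fertility in mice, was at 7.58, 7.82 and 8.21 CPM in WT testes. It was at 2.77 and 2.81 CPM in *Mov10l1*-/- testes (log2 fold change -1.50 ± 0.111 SE, edgeR adjusted p = 0.00183). The WT levels of *Egr4* differed by less than 1 CPM. *Taf4b*, a germ cell subunit of the general transcription factor TFIID, was at 11.7 to 14.3 CPM in WT testes and at 6.61 and 7.44 CPM in *Mov10l1*-/- testes, with an adjusted p of 0.0133 in edgeR's test that missed the threshold.

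In the spermatogonial list WT replicate 3 was mostly below the other WT libraries, as it was in the list of changed genes. In 19 of the 22 genes WT replicate 3 was below both other WT libraries, and summed over the list it held 172 CPM, against 286 and 274 CPM in WT replicates 1 and 2 and 121 and 125 CPM in *Mov10l1*-/- testes. Over all tested genes it was below both in 32.4% and above both in 40.2%. All 22 genes, however, had been listed as lower against WT replicates 1 and 2. Of 531 genes so listed, WT replicate 3 reached the level of WT replicate 1 or 2 in 63 (11.9%). Its place is thus not particular to spermatogonial genes. With WT replicate 3 left out all 22 were called lower, against 3.19% of all genes tested. That fit used the same libraries from which the 22 had been listed. With the prefix as a block 3 were called lower, and the list's median log2 fold change moved to -0.43.

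Of 34 listed genes of the meiotic chromosome axis and recombination, 16 were tested, and 15 of these stand in the list of changed genes. Against 0.342% of all tested genes, 1 of the 16 was called lower (median log2 fold change -1.05, range from -1.61 to -0.19). That gene was *Morc1*, an ATPase needed for transposon silencing in male germ cells, with 10.6, 8.66 and 12.9 CPM in WT testes and 3.48 and 3.54 CPM in *Mov10l1*-/- testes (log2 fold change -1.61 ± 0.174 SE, edgeR adjusted p = 0.00679). It was also the 1 member called lower among 8 tested genes of DNA methylation and heterochromatin (14 listed), whose median log2 fold change was -0.11. All 8 stand in the list of changed genes. The cohesin genes *Stag3* and *Smc1b* were at 9.18 to 15.6 CPM and 13.3 to 28.3 CPM in WT testes and at 4.81 and 4.97 CPM and 7.44 and 8.79 CPM in *Mov10l1*-/- testes, with adjusted p-values of 0.0210 and 0.0449 in edgeR's test. *Tet1*, which encodes a 5-methylcytosine dioxygenase, was at 32.5, 30.6 and 32.6 CPM in WT testes and at 42.4 and 41.5 CPM in *Mov10l1*-/- testes (log2 fold change 0.40, edgeR adjusted p = 0.0274). *Meioc*, *Kdm1b* and *Macroh2a2* were not called either, with log2 fold changes of -1.08, -0.99 and -0.73.

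Other genes with large falls act outside these groups. *Cbln1*, which encodes a secreted organizer of synapses, was at 3.63, 3.10 and 4.38 CPM in WT testes and at 0.832 and 1.09 CPM in *Mov10l1*-/- testes. *Dlgap3* and *Homer2*, scaffold genes of the postsynaptic density, were at 6.87 to 10.6 CPM and 9.02 to 10.3 CPM in WT testes and at 2.65 and 2.73 CPM and 3.40 and 3.62 CPM in *Mov10l1*-/- testes. The small GTPase gene *Rasl10b* was at 4.27 to 6.94 CPM against 1.56 and 1.55 CPM. *Gpr153*, an orphan receptor gene, was at 29.8, 30.9 and 28.7 CPM against 12.8 and 11.5 CPM, and *Crybg1* was at 5.49 to 6.70 CPM against 2.11 and 2.00 CPM. Their log2 fold changes ran from -1.94 for *Cbln1* to -1.30 for *Gpr153*, with adjusted p-values between 8.52e-04 and 0.00831 in edgeR's test. Among the 19 lower genes without a symbol, ENSMAUG00000016152 and ENSMAUG00000004226 had the largest changes, with log2 fold changes of -3.53 and -3.19 from 0.792 to 1.42 CPM and 0.828 to 1.27 CPM in WT testes.

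Some markers of cells other than germ cells were also called lower. Of 12 listed markers of mesothelium, the epithelium that covers the testis, 9 were tested, and 8 of these stand in the list of changed genes. Of the 9, 3 were called lower, against 0.342% of all tested genes, with a median log2 fold change of -1.80. All 9 were lower in both *Mov10l1*-/- libraries than in every WT library, which held for 21.5% of all tested genes. Their summed level was 68.0, 54.3 and 41.6 CPM in WT replicates 1, 2 and 3 and 17.1 and 18.0 CPM in *Mov10l1*-/- testes, and none was at 0. *Krt19*, a keratin gene, was at 8.18, 7.28 and 5.19 CPM in WT testes and at 1.85 and 2.10 CPM in *Mov10l1*-/- testes (log2 fold change -1.80, edgeR adjusted p = 0.00819). *Aldh1a2*, which makes retinoic acid, was at 13.1, 10.5 and 11.1 CPM against 4.10 and 4.54 CPM, and *Bnc1*, a zinc finger gene also used by germ cells, at 3.71 to 5.39 CPM against 1.11 and 1.42 CPM (log2 fold changes -1.42 and -1.78, edgeR adjusted p = 0.00364 and 0.00974). *Krt8* was at 9.02 to 16.3 CPM against 3.99 and 3.91 CPM and missed the threshold (edgeR adjusted p = 0.0133). The part of this tissue in the results on germ cell genes was not tested.

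Markers of endothelium, of macrophages and lymphocytes, of smooth muscle and of fibroblasts also had negative log2 fold changes. Of 25 tested genes, each of which stands in the list of changed genes, 1 was called lower, against 0.342% of all tested genes. Markers outside the lists of changed genes had no identifier here, so the shared direction is not independent of how the markers were named. The called gene was *Tnxb*, which encodes a tenascin of the connective tissue matrix. It was at 28.1 to 32.5 CPM in WT testes and 17.5 and 16.5 CPM in *Mov10l1*-/- testes (log2 fold change -0.86, edgeR adjusted p = 0.00512). The lists' medians were -0.77 over 4 endothelial genes, -1.05 over 5 macrophage and lymphocyte genes, -0.53 over 9 fibroblast and matrix genes and -0.26 over 7 smooth muscle genes. Summed CPM over these lists were 62.8 to 101 in WT testes and 44.3 in each *Mov10l1*-/- library for endothelium, 27.2 to 42.0 against 18.3 and 19.3 for macrophages and lymphocytes, 1247 to 1543 against 1071 and 1041 for fibroblasts and 786 to 1047 against 806 and 782 for smooth muscle. WT replicate 3 held the lowest WT sum in all 4 lists, no member was at 0, and their part in the results was not tested. *Cd3e*, a T cell receptor subunit, was at 2.67, 3.02 and 1.15 CPM in WT testes and at 0.339 and 0.358 CPM in *Mov10l1*-/- testes, and *P2ry12*, a purinergic receptor gene of macrophages and platelets, at 5.15, 4.07 and 0.648 CPM against 0.400 and 0.429 CPM (edgeR adjusted p = 0.0250 and 0.0902). *Vwf*, the von Willebrand factor of endothelium, was at 14.9, 6.31 and 5.89 CPM against 1.96 and 2.28 CPM (edgeR adjusted p = 0.0439). *Cav1*, *Flt1* and *S1pr1*, also of endothelium, had log2 fold changes of -0.91, -0.51 and -0.63. *Csf1r*, *Nckap1l*, *Col1a1*, *Col12a1* and *Svep1* lay between -1.05 and -0.40. Of the smooth muscle genes *Des*, *Cald1* and *Flnc* were at -0.47, -0.26 and -0.26. *CYP11A1*, the only one of 8 listed Leydig cell genes with an identifier, was at 21.2 to 34.7 CPM in WT testes and 24.4 and 25.6 CPM in *Mov10l1*-/- testes.

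The Sertoli cell genes that could be tested went the other way without passing the test. Of 21 listed markers 9 were tested and 0 were called in edgeR's test. An unadjusted p below 0.05 was found for 7, all higher in *Mov10l1*-/- testes, and in either direction for 3427 of all 15776 tested genes. DESeq2 called 1 of the 9. In the list of changed genes stand 6 of the 9, and the rest were named through a list of genes changed at birth. Their direction is therefore not independent of how they were named. The median log2 fold change was 0.36, and the summed level was 3586, 3683 and 3822 CPM in WT testes and 3985 and 4073 CPM in *Mov10l1*-/- testes. *Inha*, the inhibin alpha subunit, was at 333, 404 and 442 CPM in WT testes and at 511 and 531 CPM in *Mov10l1*-/- testes, *Gamt* at 65.7 to 79.0 CPM against 97.4 and 94.6 CPM, and *Sox8* at 36.9 to 45.1 CPM against 54.2 and 52.2 CPM (edgeR adjusted p = 0.109, 0.0452 and 0.0822). *Defb119* was at 14.8 to 17.4 CPM against 20.8 and 19.8 CPM. Tested Sertoli cell markers were thus present in every library, as the label of whole testis requires, while *Amh*, *Sox9* and *Wt1* had no identifier here.

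Genes of several general cell functions lay slightly higher in *Mov10l1*-/- testes without passing the test. Of 12 tested genes of ER chaperones and the unfolded protein response, 9 of sterol and fatty acid synthesis, 6 of p53 and stress response and 28 histones, 0 were called in edgeR's test. At an unadjusted p below 0.05, 10, 8, 4 and 19 of them were higher and 0 lower, and DESeq2 called 0, 1, 0 and 1 higher. Such an edgeR p was found in either direction for 3427 of all 15776 tested genes. Of the members 12, 9, 6 and 27 stand in the list of genes that changed in these *Mov10l1*-/- libraries. Their direction and p-values are therefore not independent of how they were named, and the share over all genes measures no enrichment. *Gadd45b*, of the p53 and stress list, and a histone H3.1 gene, ENSMAUG00000010700, were both named after their values were seen. Their log2 fold changes were -0.46 and -0.68, and neither was called. The medians of these lists were 0.34, 0.34, 0.39 and 0.29 on the log2 scale. *Hspa5*, the ER chaperone BiP, was at 594, 689 and 833 CPM in WT testes and at 907 and 979 CPM in *Mov10l1*-/- testes. *Ddit4*, a stress-induced inhibitor of mTORC1, was at 121, 124 and 150 CPM against 170 and 167 CPM. *Cdkn1a*, the p53 target p21, was at 6.34 to 8.12 CPM against 10.9 and 10.1 CPM. In all 12 ER genes, all 9 sterol genes and 27 of the 28 histones WT replicate 3 was above both other WT libraries, toward the *Mov10l1*-/- level. Genes listed as higher against WT replicates 1 and 2 shared this place. Of 404 such genes WT replicate 3 was at or below the level of WT replicate 1 or 2 in 18 (4.46%). The place is thus not particular to these functions. *Elovl2*, *Ebp*, *Tecr*, *Fads6*, *Sdf2l1*, *Sec61b*, *Hsp90b1*, *Gadd45a*, *H2ax* and *H2bu2* had log2 fold changes from 0.29 to 0.71. Histone genes are near-identical copies that share reads, so their single counts are uncertain.

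**Figure D4:**
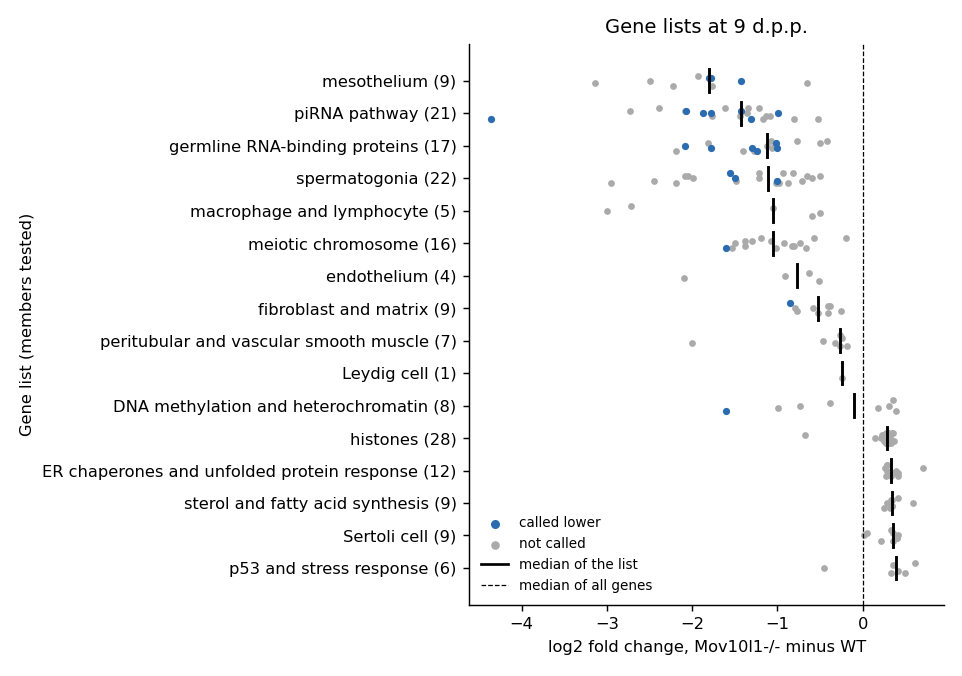
Log2 fold change of *Mov10l1*-/- against WT at 9 d.p.p. (x axis) for each tested member of the 16 gene lists (y axis, with the number tested), where blue points were called lower, grey points were not called, black bars are list medians and the dashed line is the median of all tested genes. The medians run from -1.80 for mesothelium to 0.39 for p53 and stress response, and every called member lies on the lower side.

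Of the 9 genes called higher, *Lypd6b* and *Ptchd3* had a symbol. *Lypd6b*, which encodes a membrane protein that modulates nicotinic acetylcholine receptors, was at 0.848, 0.725 and 0.774 CPM in WT testes and at 5.02 and 5.74 CPM in *Mov10l1*-/- testes, with little spread within either group (log2 fold change 2.78 ± 0.153 SE, edgeR adjusted p = 8.52e-04). *Lypd6b* lies at 10319987 to 10337642 and *Kif5c*, a kinesin heavy chain gene, at 10003844 to 10139859, both on the plus strand of MesAur1.0 scaffold KB708143.1. *Kif5c* was at 40.9, 39.9 and 84.3 CPM in WT testes and at 91.2 and 89.1 CPM in *Mov10l1*-/- testes, so WT replicate 3 grouped with the knockout for *Kif5c* and with the other wild types for *Lypd6b*. *Kif5c* was not called (log2 fold change 0.72, edgeR adjusted p = 0.208). *Ptchd3*, a gene of a patched-domain protein, had 5, 6 and 1 counts in WT testes and 51 and 68 in *Mov10l1*-/- testes (log2 fold change 3.84, edgeR adjusted p = 0.00716).

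The other 7 genes have no symbol. ENSMAUG00000013211 had 7, 8 and 10 counts in WT testes and 101 and 132 in *Mov10l1*-/- testes. ENSMAUG00000014940 had 2, 3 and 2 counts in WT testes and 38 and 37 in *Mov10l1*-/- testes, a ratio of 15.8 after scaling (exact 95% interval 7.32 to 40.8, counting error only).

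WT libraries at birth, sequenced in the same layout and scaled together with these 5 libraries, gave a second reference level for the called genes, as a description without a test. Their animal codes begin with neither So802 nor So820, so age cannot be told apart from the prefix. In 8 of the 9 genes called higher both WT libraries of 0 d.p.p. were above all 3 WT libraries of 9 d.p.p., which held for 34.6% of all tested genes. *Lypd6b* was at 26.0 and 16.3 CPM at birth, *Ptchd3* at 2.73 and 2.19 CPM and ENSMAUG00000014940 at 17.1 and 15.3 CPM. Both libraries of birth were above both *Mov10l1*-/- libraries in 4 of the 9 genes, these 3 among them. Over all 15776 tested genes this held for 6403. In others the *Mov10l1*-/- level was the highest, as in ENSMAUG00000002083, named after its values were seen, with 2.22 and 2.49 CPM against 0.901 and 0.797 CPM at birth. Of the 54 genes called lower, 46 were also higher at birth than in every WT library of 9 d.p.p., and 5 were lower at birth. Over all tested genes the shares were 34.6% and 43.2%. *Piwil2* was at 155 and 132 CPM at birth, *Ddx4* at 101 and 75.2 CPM and *Egr4* at 93.0 and 85.2 CPM, and their *Mov10l1*-/- levels of 9 d.p.p. were below the WT levels of both ages.

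Whether differences hold among animals of one prefix could be read from WT replicate 3 against the *Mov10l1*-/- libraries, with no test. The list of genes reported as changed was made without WT replicate 3, so the place of that library is a measurement the list did not use, although the *Mov10l1*-/- libraries are shared. Of the 531 listed genes that were lower in *Mov10l1*-/- testes than in WT replicates 1 and 2, WT replicate 3 was above both *Mov10l1*-/- libraries in 430 (81.0%), between them in 44 and below both in 57. Over all 15776 tested genes it was above both in 5987 and below both in 6256. Among the 531 listed genes it reached the level of WT replicate 1 or 2 in 63. Of the 404 listed genes that were higher in *Mov10l1*-/- testes, WT replicate 3 was below both *Mov10l1*-/- libraries in 366 (90.6%), and at or below the level of a WT replicate 1 or 2 in 18. The median log2 difference of the knockout was -0.66 against WT replicates 1 and 2 and -0.29 against WT replicate 3 for the lower genes, and 0.39 and 0.14 for the higher ones. These values are a description: the listed genes were chosen with the same *Mov10l1*-/- libraries, so the counts are not independent of that choice.

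With the prefix as a block, the genotype contrast rests on WT replicate 3 against the 1 *Mov10l1*-/- animal, so a call gained there compares 1 animal with 1 animal. In this fit edgeR's test called 7 genes (0.0444%) higher and 91 (0.577%) lower. Of the 54 genes called lower without the block 34 were called again, and 4 of the 9 called higher. In the block, *Mov10l1* had a log2 fold change of -3.71 (adjusted p = 1.37e-05), *Ddx25* of -2.18 (adjusted p = 0.00116) and *Lypd6b* of 2.79 (adjusted p = 0.00174) in edgeR's test. Of the 60 genes called with the block alone WT replicate 3 was above both other WT libraries in 54, against 40.2% of all tested genes. Because the block contrast rests on WT replicate 3, these genes were chosen in part by its level, and the 54 is not an independent result. In the piRNA list 12 genes were called lower with the block, 7 without it. Of the called genes named above, *Adad2*, *Trim71*, *Elavl2*, *Rasl10b*, *Bnc1*, ENSMAUG00000016152 and ENSMAUG00000004226 missed the threshold with the block, with adjusted p-values between 0.0103 and 0.0187 in edgeR's test, as did ENSMAUG00000014940 at 0.0231, whereas *Krt8* passed it (adjusted p = 0.00421 in edgeR's test).

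The block changed the lists by different amounts. The median log2 fold change of the piRNA list was -1.30 with the block and -1.42 without it, that of mesothelium -1.36 and -1.80, and that of germline RNA-binding proteins -0.85 and -1.12. The meiotic list moved from -1.05 to -0.36, endothelium from -0.77 to -0.48, macrophages and lymphocytes from -1.05 to -0.64, fibroblasts and matrix from -0.53 to -0.26 and smooth muscle from -0.26 to -0.06. On the higher side, Sertoli cell genes moved from 0.36 to 0.22, ER genes from 0.34 to 0.12, sterol genes from 0.34 to 0.13, p53 and stress genes from 0.39 to 0.19 and histones from 0.29 to 0.10.

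*Piwil4*, the nuclear PIWI protein that directs DNA methylation of transposons, was at 14.2, 8.55 and 33.9 CPM in WT replicates 1, 2 and 3 and at 3.36 and 3.81 CPM in *Mov10l1*-/- testes. *Dppa4*, a chromatin protein gene of pluripotent and early germ cells, was at 6.62, 5.74 and 14.1 CPM against 2.13 and 2.00 CPM. Over the 5 libraries neither was called (log2 fold changes -2.39 and -2.09, edgeR adjusted p = 0.0628 and 0.0384). With the prefix block both were (-3.24 and -2.77, edgeR adjusted p = 0.00155 and 3.54e-04), in a contrast of 1 animal with 1 animal. *Spocd1* and *Nxf7*, named after their values were seen, followed the same order. *Spocd1*, an adaptor of piRNA-directed DNA methylation, was at 1.85, 1.13 and 6.11 CPM in WT testes and at 0.308 and 0.587 CPM in *Mov10l1*-/- testes, and *Nxf7*, of the nuclear RNA export family, at 1.97, 1.73 and 4.63 CPM against 0.508 and 0.601 CPM. At birth these 4 genes were at 322 and 342 CPM (*Piwil4*), 91.7 and 76.0 CPM (*Dppa4*), 142 and 134 CPM (*Spocd1*) and 63.2 and 64.3 CPM (*Nxf7*) in WT testes.

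In the opposite direction, among genes with a symbol and a mean of at least 5 CPM, WT replicate 3 was farthest below the other wild types for *Fgfr3*, *Ret* and *Notch3*. A histone H3.1 gene without a symbol, ENSMAUG00000010700, named after its values were seen, lay farther below, at 60.02, 88.68 and 3.21 CPM in WT replicates 1, 2 and 3 and 29.0 and 34.4 CPM in *Mov10l1*-/- testes, so that its log2 fold change turned from -0.68 to 3.31 with the block (edgeR adjusted p = 0.693 and 0.00189). *Fgfr3*, a growth factor receptor of undifferentiated spermatogonia, was at 20.5 and 22.7 CPM in WT replicates 1 and 2, 1.91 CPM in WT replicate 3 and 2.77 and 2.76 CPM in *Mov10l1*-/- testes. *Ret*, the receptor for GDNF on spermatogonial stem cells, was at 16.99, 21.37 and 2.52 CPM in WT testes and at 3.22 and 3.42 CPM in *Mov10l1*-/- testes. For both genes WT replicate 3 was below the knockout, so their log2 fold changes of -2.45 and -2.04 over the 5 libraries (edgeR adjusted p = 0.156 and 0.165) turned to 0.54 and 0.40 with the prefix block (adjusted p = 0.156 and 0.452). *Notch3*, a receptor of vascular smooth muscle, was at 18.9, 34.1 and 4.90 CPM against 5.11 and 4.52 CPM. At birth *Fgfr3* was at 5.27 and 4.62 CPM and *Ret* at 2.54 and 2.03 CPM, below WT replicates 1 and 2 of 9 d.p.p., while *Notch3* was at 76.1 and 47.2 CPM.

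**Figure D5:**
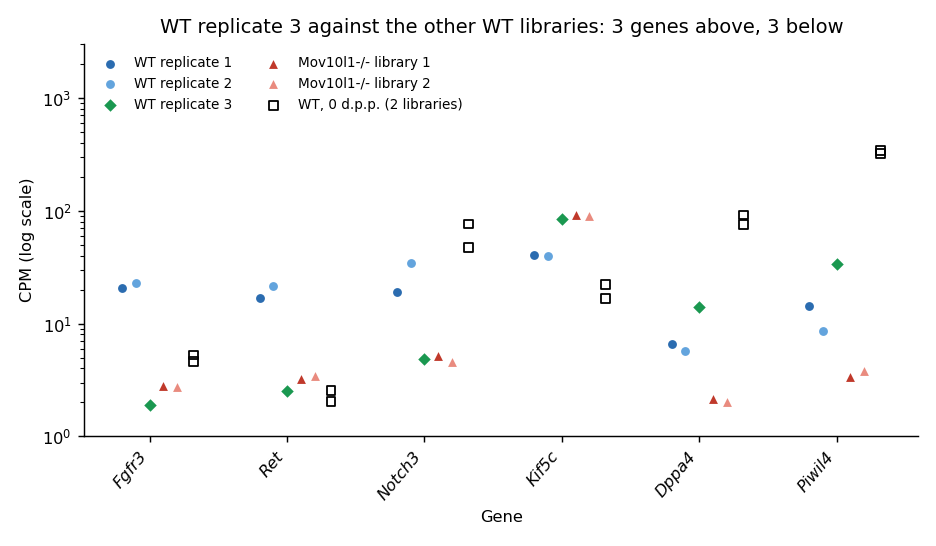
CPM on a log axis (y axis) of the 3 genes farthest above and the 3 farthest below WT replicates 1 and 2 in WT replicate 3, among genes with a symbol and a mean of at least 5 CPM (x axis), in each library of 9 d.p.p. and, as open squares, in the 2 WT libraries of 0 d.p.p. WT replicate 3 lies with the *Mov10l1*-/- libraries for *Fgfr3*, *Ret*, *Notch3* and *Kif5c*, and far above them for *Dppa4* and *Piwil4*, where the levels at birth are higher still.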

How the data were processed

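The authors aligned single-end 75-nucleotide reads from rRNA-depleted, stranded libraries to MesAur1.0 with STAR 2.7.3a and counted exons of Ensembl genes with featureCounts 2.0.0, splitting multimapping and overlapping reads into fractions, so that 11.8 to 12.7% of the deposited estimated counts of a library are not whole. These estimated counts were rounded here. Genes passing edgeR's filter were scaled by TMM and tested with edgeR 4.0.16 (R 4.3.3; quasi-likelihood, Benjamini-Hochberg, called at an adjusted p below 0.01); DESeq2 1.42.0, other filters and scaling, blocks of the animal code prefix or the replicate number, summed *Mov10l1*-/- libraries and each library left out were alternatives. Tables used Python 3.11.15 and pandas 2.3.3. Intervals cover counting error only.

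Of 22285 genes 1058 had a symbol, 1042 from the gene name column of the study's lists, 9 through NCBI gene IDs, 5 by description and 2 from the count table. Libraries and lists were chosen with earlier results of these data known. The text names *Mov10l1*; of the called genes with a symbol the 10 higher (2 existed) and 20 lower with the largest change; the 4 members of each list with the lowest adjusted p; the 3 genes each with WT replicate 3 farthest above and below (with a symbol and a mean of at least 5 CPM); and *Kif5c* and *Lypd6b*. The piRNA plot shows every member.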

Additional observations from a re-analysis of the deposited data

How the results depend on the processing

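Genes called higher and lower were 9 and 54 from the 5 libraries, 71 and 440 with DESeq2, 27 and 203 without a filter on low counts, 3 and 48 with at least 10 counts in every library, and 49 and 378 at an adjusted p below 0.05. They were 0 and 0 with both *Mov10l1*-/- libraries summed, 7 and 91 with the prefix block, and 0 to 87 and 0 to 496 when each library was left out in turn. A block of the replicate number, which does not pair these animals (correlation of deviations -0.046 and -0.174 for the numbers 1 and 2), gave 113 and 477. The targeted gene Mov10l1 kept its direction, at -4.61 to -4.18 on the log2 scale over the libraries left out and -4.36 (edgeR adjusted p above 0.01) when summed. Under DESeq2 the lists had these members called lower: 17 piRNA pathway, 13 spermatogonia, 14 germline RNA-binding, 6 meiotic, 8 mesothelium, 4 matrix, 3 endothelium, 3 macrophage and lymphocyte, 2 DNA methylation, and 1 called higher in each of the Sertoli cell, sterol, DNA methylation and histone lists. With the prefix block 12 piRNA pathway, 2 DNA methylation, 4 germline RNA-binding, 4 mesothelium and 3 spermatogonia genes were called lower and 1 histone higher. With the summed libraries each list had 0 calls, as it had without either *Mov10l1*-/- library. Over the libraries left out, genes called lower ranged from 0 to 18 (piRNA pathway), 0 to 22 (spermatogonia), 0 to 15 (germline RNA-binding), 0 to 13 (meiotic), 0 to 7 (mesothelium), 0 to 3 (matrix; macrophage and lymphocyte), 0 to 2 (DNA methylation, endothelium, smooth muscle) and 0 to 1 (Leydig cell, p53, histones), and those called higher from 0 to 1 (Sertoli cell) and 0 to 2 (p53, sterol, histones). The upper ends came from leaving out WT replicate 3. Of 177 tested list members 22 changed sign under the prefix block, among them *CYP11A1* at 0.24, *Fgfr3* at 0.54 and *Ret* at 0.40; 0 of the 22 were called from the 5 libraries and 1, the histone H3.1 gene, was called with the block. The cause of these changes was not tested.

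The *Mov10l1*-/- group is 1 animal, so no p-value here measures spread between mutant animals, and with summed libraries the spread comes from 3 WT animals. Prefix and genotype are separated by 1 library. Symbols were taken from lists of changed genes, so the named genes are not a fair sample of all genes. Library totals were at least 56754151 counts, and 2651 of the 15776 tested genes averaged under 1 CPM in WT testes, all 9 genes called higher among them.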
